A study of Mus musculus with 2 samples.

Results

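Snhg1 (ENSMUSG00000090867.1) is a noncoding gene on the plus strand of mouse chromosome 19, at chr19:8797986-8800932 of mm9, and it carries 8 snoRNA genes in its body of 2947 bases. They are SNORD25, SNORD26, SNORD27, SNORD28, SNORD29, SNORD30, SNORD31 and Snord22, spelled here as in GENCODE release M1. The host and these snoRNAs are 9 of the 37310 annotated genes. Snhg1 was chosen by the read count of Snord22, the highest of all snoRNA genes in both libraries, so the level of Snord22 is a description and no finding.

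The data are strand-specific reads of non-polyadenylated (NPA) RNA, the RNA left after poly(A) RNA was removed. One library came from male R1 embryonic stem cells (ESCs), a mouse line grown with LIF over embryonic fibroblast feeders that mitomycin C had arrested. The other came from neuronal progenitor cells (NPCs) derived from them, which were kept without LIF as embryoid bodies for 4 days, replated on poly-L-ornithine and fibronectin, and gathered on day 7. Each cell type has 1 library, so no value has a replicate, and a ratio of NPC to ESC describes these libraries and not the cell types.

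Snhg1 is known as the host gene of U22. Its spliced exons encode no conserved protein and are degraded by nonsense-mediated decay, whereas the excised introns yield stable snoRNAs that lack a poly(A) tail. Box C/D snoRNAs carry a C box near the 5′ end and a D box near the 3′ end, are bound by Fbl, Nop56, Nop58 and Nhp2l1, and mostly guide the 2′-O-methylation of ribosomal RNA. Snord22 (U22) has no known methylation target and is required for the processing of 18S ribosomal RNA. SNORD25, SNORD27 and SNORD28 guide methylation of 18S, and SNORD26, SNORD29, SNORD30 and SNORD31 guide methylation of 28S.

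The 8 snoRNA sequences are shown because the read starts described further on are measured against their 5′ boxes. They were read from mm9 on the plus strand, 5′ to 3′, and capitals mark the first TGATGA, the usual form of the C box, and the last CTGA, the D box. In SNORD28 the marked TGATGA begins at base 17 and the first TGA at base 7, and which of them is its C box was not tested.
SNORD25, chr19:8798486-8798550: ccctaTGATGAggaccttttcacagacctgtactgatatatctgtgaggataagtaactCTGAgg
SNORD26, chr19:8798741-8798815: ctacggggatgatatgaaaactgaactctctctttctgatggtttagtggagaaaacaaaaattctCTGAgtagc
SNORD27, chr19:8799021-8799092: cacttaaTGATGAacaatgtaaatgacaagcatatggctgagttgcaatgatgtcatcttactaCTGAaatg
SNORD28, chr19:8799358-8799433: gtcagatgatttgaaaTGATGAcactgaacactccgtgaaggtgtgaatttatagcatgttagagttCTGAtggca
SNORD29, chr19:8799582-8799646: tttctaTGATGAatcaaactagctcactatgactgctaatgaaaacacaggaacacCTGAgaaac
SNORD30, chr19:8799831-8799899: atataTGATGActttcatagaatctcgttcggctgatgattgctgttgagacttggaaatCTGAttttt
SNORD31, chr19:8800084-8800150: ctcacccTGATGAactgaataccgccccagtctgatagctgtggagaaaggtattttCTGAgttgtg
Snord22, chr19:8800356-8800481: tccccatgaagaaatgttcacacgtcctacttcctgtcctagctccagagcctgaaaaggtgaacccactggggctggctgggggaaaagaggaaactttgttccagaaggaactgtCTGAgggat

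All 8 genes held CTGA within their last 15 bases, and 5 of them, all but SNORD26, SNORD28 and Snord22, held TGATGA within their first 15. Among the 346 genes named SNORD or Snord in the annotation, 71.7% held this TGATGA, 90.5% this CTGA and 67.3% both. Among 1031 genes named SNORA or Snora, which belong to the H/ACA class, the shares were 0.291%, 6.30% and 0.0970%. In windows of 72 bases along both strands of chromosome 19 they were 0.324%, 6.44% and 0.0207%. SNORD28 has its TGATGA at base 17, and SNORD26 and Snord22 do not hold these letters at all. On the opposite strand of the 8 genes TGATGA occurred 0 times and CTGA once, in SNORD28. CTGA can share bases with TGATGA, as it does at the 5′ box of SNORD31.

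The deposited placements number 4271306 reads in ESCs and 4399729 in NPCs, and 1 read is worth 0.234 RPM (reads scaled by the library total) in ESCs and 0.227 in NPCs. A count of 0 allows up to 3 reads, or 0.702 RPM in ESCs and 0.682 in NPCs. All intervals below are 95% intervals that cover counting error only, since the reads carry no molecular identifiers. The pluripotency markers bore out the ESC label, with 7 of 8 more than 2-fold lower in NPCs, against 12.8% of all genes, and a summed level of 2177 RPM in ESCs and 592 in NPCs. Of the 7 neural progenitor markers found, 4 had at least 10 reads and Pax6 alone of these was more than 2-fold higher in NPCs. Pax6 had 1 ESC read and 12 NPC reads. Nes had an NPC to ESC ratio of 1.78 (1.31 to 2.44), Ncam1 of 1.01 (0.760 to 1.34) and Msi1 of 0.588 (0.420 to 0.819). Sox3, Pou3f2 and Fabp7 had 0 reads in ESCs and 5, 5 and 2 in NPCs. This list summed to 62.3 RPM in ESCs and 70.2 in NPCs, most of it Nes, Msi1 and Ncam1. Only Msi1 was lower in NPCs, but most other rises rest on few reads, so the list did little to bear out the NPC label. All 6 extraembryonic endoderm markers were more than 2-fold higher in NPCs, against 24.6% of all genes, with a sum of 26.0 RPM in ESCs and 690 in NPCs. The 6 fibroblast markers summed to 467 RPM in ESCs and 270.5 in NPCs, most of it Fn1 at 425 and 213 RPM. Besides Fn1 only Thy1 was lower in NPCs, at a ratio of 0.147 (0.0731 to 0.272). Col1a1, Col1a2, Col3a1 and Postn were higher, with Col1a2 at 3.14 (2.28 to 4.39), so the sum does not give the direction of most members. None of these lists was at 0 in either library, and the part of cell composition in the ratios below was not tested. In bulk RNA, fewer cells of a type and less RNA per cell cannot be told apart.

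Nearly all RNA read from the Snhg1 locus was snoRNA. Of the reads in the gene body, 152722 in ESCs and 83073 in NPCs lay on the 8 snoRNAs, or 99.8% and 99.7%. They made up 3.58% of the ESC library (Clopper-Pearson interval 3.56 to 3.59%) and 1.89% of the NPC library (1.88 to 1.90%). Of the reads on all annotated snoRNA genes they made up 16.3% in ESCs and 19.1% in NPCs, so their share within the class was larger in the NPC library while their share of all reads was smaller. Every one of these reads was placed at a position whose 48 bases of mm9 occur once in the genome. Inexact copies were not searched for. The opposite strand of the whole body had 0 reads in ESCs, which allows up to 3, and 1 read in NPCs.

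The 8 snoRNAs differed greatly in level although they come from 1 primary transcript. Per base, in RPKM (RPM divided by length in kilobases), Snord22 was the highest with 218176 in ESCs and 103998 in NPCs. SNORD25 followed with 63955 and 34544, and SNORD26 was the third with 28928 and 32132. In ESCs the order went on with SNORD27 at 12958, SNORD28 at 9571, SNORD29 at 2673, SNORD31 at 1412 and SNORD30 at 143 RPKM. In NPCs SNORD28 at 8443 stood above SNORD27 at 4732, and SNORD29 at 1406, SNORD31 at 509 and SNORD30 at 211 RPKM closed the order. In reads not divided by length, SNORD26 stood above SNORD25 in NPCs with 10603 against 9879. The counting intervals of neighbours in this order did not overlap in either library, the closest pair being SNORD25 (33866 to 35232) and SNORD26 (31524 to 32750) in NPCs. Snord22 stood 1531-fold above SNORD30 in ESCs and 493-fold in NPCs on this scale, and 2796-fold and 901-fold in reads.

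**Figure D1:**
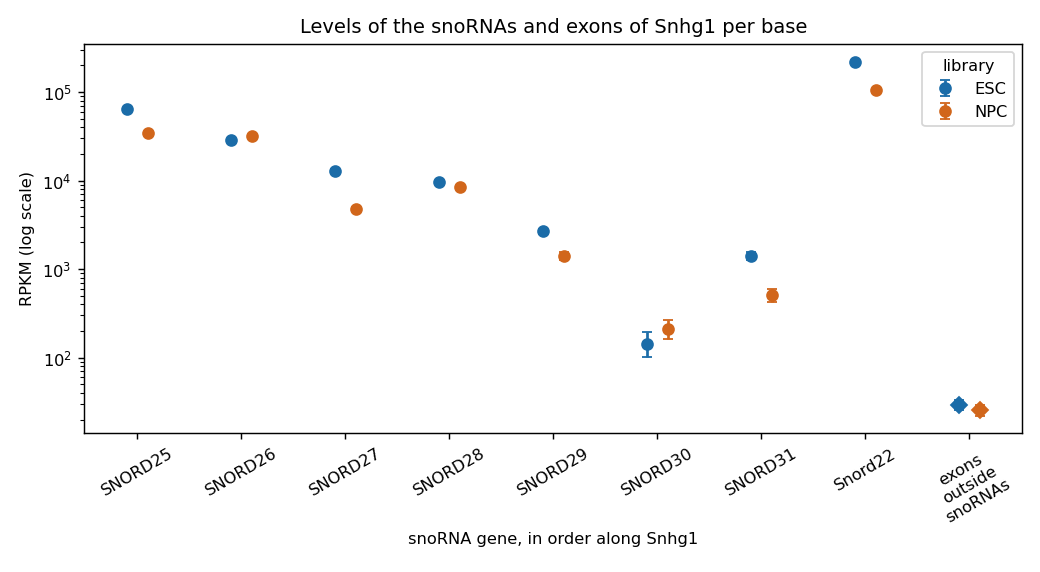
Levels of the 8 snoRNAs of Snhg1 and of its exons outside snoRNAs, in RPKM on a log axis, in the ESC (blue) and NPC (orange) libraries. Points are single libraries, and bars are exact Poisson 95% intervals, often smaller than the point. Snord22 is at 218176 RPKM in ESCs, and SNORD30 at 143 RPKM is the lowest snoRNA, still above the exons at 29.4 RPKM.

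From SNORD25 to SNORD30 the levels per base were in the order of the genes along the host, highest first, in ESCs, and in NPCs they did so but for SNORD27 and SNORD28, which changed places. SNORD31 and Snord22, further downstream, broke this order. Snord22 is the last of the 8 along the gene and had the most reads of all 1552 annotated snoRNA genes in both libraries. SNORD30 and SNORD31, just upstream of it, ranked 266 and 163 in ESCs and 227 and 180 in NPCs. SNORD25, the most upstream, ranked 13 in ESCs and 8 in NPCs, and SNORD26 moved from rank 27 to rank 6. Snord22 is also the longest at 126 bases, against 65 to 76 bases for the others. The authors cut library fragments of 150 to 250 bp from a gel, and how that selection weighs RNAs of these lengths was not tested.

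Outside the snoRNAs the host was barely covered in the deposited placements of this RNA fraction. The annotation has 2 transcripts of Snhg1, and the one with 4 exons places 6 of the snoRNA genes within exons and leaves SNORD26 in intron 1 and SNORD31 in intron 2. The other transcript has an intron around SNORD30, and the joined exons of both leave 0 intron bases. Annotated exons of Snhg1 thus keep stretches that the snoRNAs mark as introns of the spliced RNA, and the split below follows the annotation. The 3 introns that hold a snoRNA place it 61 to 84 bases after their 5′ splice site and 75 to 121 bases before their 3′ splice site.

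The exons outside snoRNAs, 1866 bases in all, were covered by 234 ESC reads (Poisson interval 205 to 266) and 209 NPC reads (182 to 239). This is 29.4 and 25.5 RPKM. The authors placed reads on the genome with Bowtie. Whether reads across splice junctions are missing from the exon counts was not tested. The intron remainders, 465 bases, had 7 reads in ESCs and 8 in NPCs, or 3.52 and 3.91 RPKM. Per base, the snoRNAs had 1980 times the reads of the exons in ESCs (interval 1742 to 2261) and 1206 times in NPCs (1053 to 1388). For Snord22 alone the excess was 7431-fold in ESCs and 4085-fold in NPCs. For SNORD30 it was 4.85-fold (3.41 to 6.76) in ESCs and 8.28-fold (6.16 to 11.0) in NPCs, so the lowest snoRNA stood above the average of the exons. The stretch between SNORD26 and SNORD27 came close to it in ESCs, at 121 RPKM against 143 for SNORD30, and had 79.8 RPKM against 211 in NPCs. Only 26 of the 42 ESC reads of SNORD30 started within 5 bases of its first base, so 143 RPKM is more than those reads alone would give. Whether SNORD30 stood above that stretch in ESCs by those reads alone was not tested.

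Most of the host reads lay upstream. Exon 1 held 88 ESC reads and 86 NPC reads, and exon 2 held 139 and 109. Exon 3 had 3 and 5 reads, and exon 4 had 4 and 9. The stretch between SNORD26 and SNORD27 alone held 106 ESC reads and 72 NPC reads. A pair of adjacent start positions, 8798908 and 8798909, near the start of exon 2, gave 34 and 42 of the 241 ESC reads outside snoRNAs and 20 and 23 of the 217 NPC reads. No stretch of intron reached 100 reads at any base in either library. In both libraries bases 42 to 246 of the gene had no read, a stretch of 205 bases. The authors removed reads in RepeatMasker regions, and the part of that filter in such gaps was not tested.

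**Figure D2:**
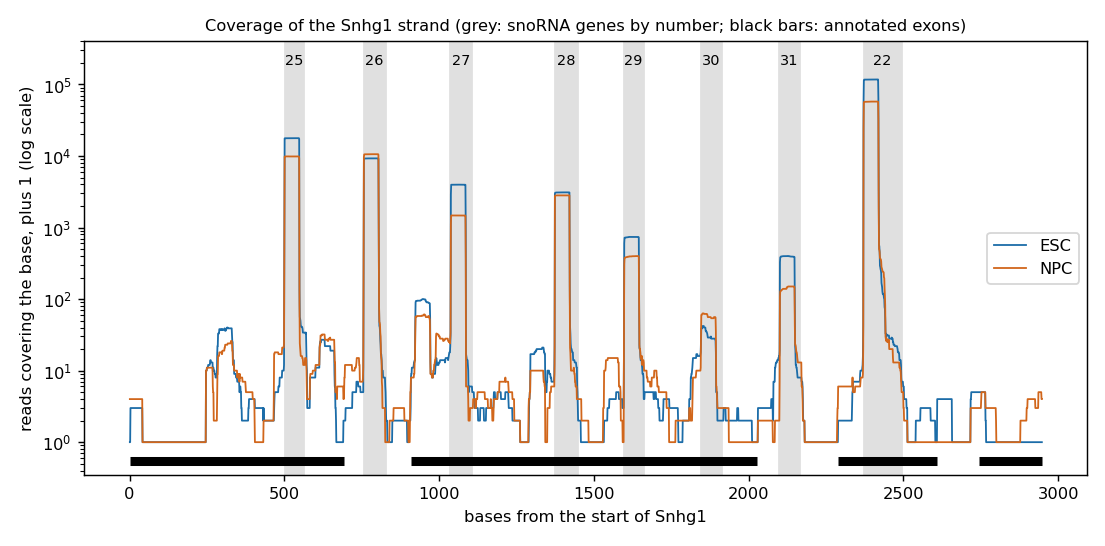
Reads covering each base of the Snhg1 strand, plus 1, on a log axis, against the distance in bases from the start of the gene, for ESCs (blue) and NPCs (orange). Grey bands are the 8 snoRNA genes, numbered, and black bars are the annotated exons. The snoRNAs rise as blocks of 48 bases, up to the block of Snord22, and reads counted for the host reach at most 99 at one base.

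Reads of the snoRNAs started at fixed positions, and the most used start was the same in both libraries for all 8. In SNORD25 it was base 1 of the annotated gene, with 96.8% of its ESC reads and 93.9% of its NPC reads. In SNORD26, SNORD28 and SNORD29 it was base 2, with 87.9%, 94.3% and 79.5% in ESCs and 89.6%, 96.0% and 72.6% in NPCs. In SNORD27 and SNORD31 it was base 3, with 72.2% and 76.5% in ESCs and 73.1% and 67.3% in NPCs. The next base downstream took a further 26.6% of SNORD27 reads in ESCs and 24.1% in NPCs.

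Snord22 had a double start, unlike the single dominant starts of SNORD25, SNORD26 and SNORD28. In ESCs 50.6% of its reads began at base 2 (interval 50.3 to 50.9%) and 46.5% at base 1 (46.2 to 46.8%). In NPCs the shares were 54.1% (53.7 to 54.5%) and 42.6% (42.2 to 43.0%). The balance between the starts thus differed between the libraries by more than counting error, which is the only error these data give.

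Measured against the sequence, the dominant start lay 5 bases upstream of the T of TGATGA in SNORD25, SNORD27, SNORD29 and SNORD31, 4 bases upstream in SNORD30 and 15 bases upstream in SNORD28. Among other SNORD genes with TGATGA within their first 15 bases and at least 100 reads, the dominant start was 5 bases upstream in 72.2% of 54 genes in ESCs and 75.5% of 53 in NPCs. It was 4 or 5 bases upstream in 94.4% and 96.2%. The 3 remaining members lack the full motif near their 5′ end, so the first TGA was used for them, a choice made after their starts were seen. On that measure SNORD28 and Snord22 also started 5 bases upstream, as did 6 of the 8 in all, and SNORD26 started 8 bases upstream. The 5′ end of a mature box C/D snoRNA is usually found at this distance. With 48 bases read from the 5′ end, the 3′ ends of the snoRNAs were mostly not read.

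**Figure D3:**
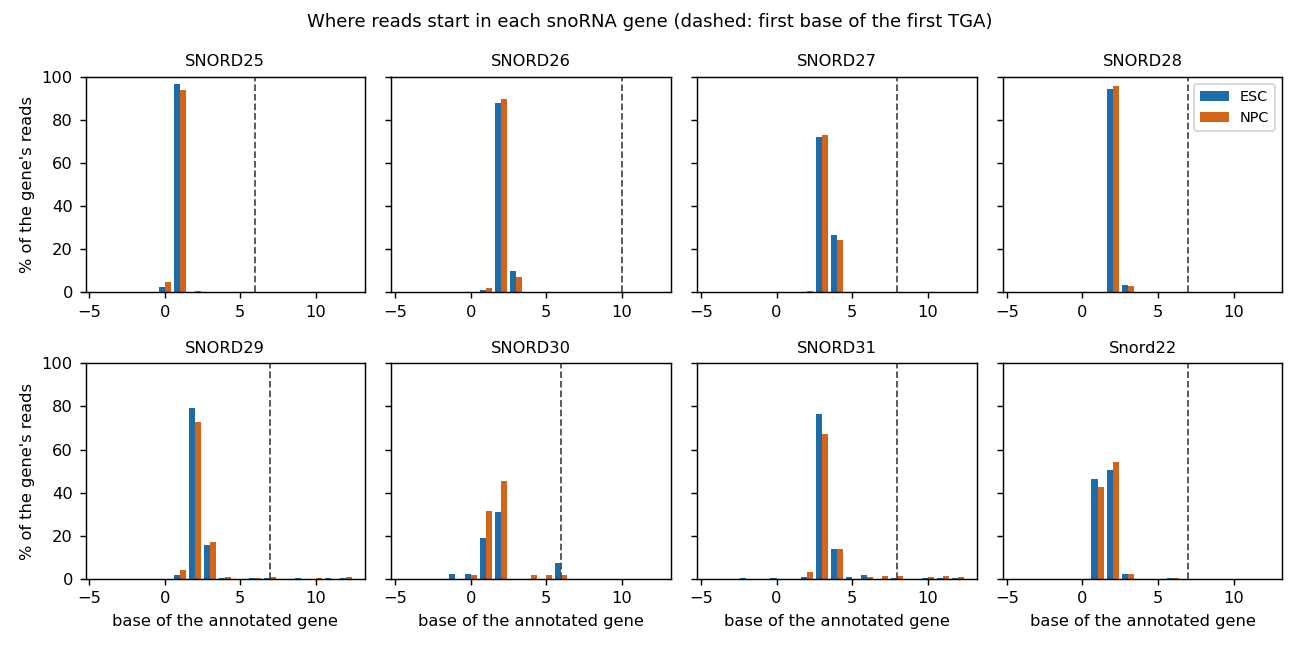
Share of the reads of each snoRNA that start at each base, in percent, with base 1 the first base of the annotated gene, for ESCs (blue) and NPCs (orange). The dashed line is the first base of the first TGA. The tallest bar is at the same base in both libraries in all 8 panels, Snord22 has its reads on bases 1 and 2, and SNORD30 is the most scattered.

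The 3 lowest snoRNAs had the largest shares of reads from elsewhere. Starts within 5 bases of the first annotated base made up 99.7% of the Snord22 reads in ESCs and 99.3% in NPCs, and at least 98.2% in either library for SNORD25, SNORD26, SNORD27 and SNORD28. The share was 97.4% in ESCs and 94.8% in NPCs for SNORD29, and 94.1% and 85.3% for SNORD31. For SNORD30 it was 61.9% in ESCs (interval 45.6 to 76.4%) and 82.8% in NPCs (71.3 to 91.1%). Of the SNORD30 reads, 15 of 42 in ESCs and 9 of 64 in NPCs began more than 5 bases upstream of the gene, so they also contain intron or exon sequence. Part of the SNORD30 count is thus from RNA longer than the snoRNA. Of the 150 SNORD31 reads in NPCs, 21 began further inside the gene and 12 of all its reads ran past its annotated end.

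Between the libraries, the 8 snoRNAs together had an NPC to ESC ratio of 0.528 (conditional binomial interval 0.524 to 0.533), a log2 ratio of -0.92. Without Snord22 the ratio was 0.699 (0.688 to 0.710). The ratios below are of RPM, and the median log2 ratio of the 14859 genes with at least 10 reads was 0.34 on this scale, so a gene at 0 lies below the typical gene. The median of the 162 SNORD or Snord genes was -0.31, that of all 355 snoRNA genes was -0.83, and that of the 8 members was -0.91.

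Snord22, the 18S processing factor, had 117419 reads or 27490 RPM in ESCs and 57653 reads or 13104 RPM in NPCs. Its ratio was 0.477 (0.472 to 0.481), a log2 ratio of -1.07. It held 76.9% of the reads of the 8 snoRNAs in ESCs and 69.4% in NPCs, so the sum follows it.

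Of the 18S guides, SNORD25 had 4157 RPM in ESCs and 2245 in NPCs, from 17756 and 9879 reads. Its ratio was 0.540 (0.527 to 0.554), close to that of the sum. SNORD27 had 933 RPM in ESCs and 341 in NPCs, from 3985 and 1499 reads, and its ratio was 0.365 (0.344 to 0.388). SNORD28 had 727 RPM in ESCs and 642 in NPCs, from 3107 and 2823 reads, and its ratio was 0.882 (0.838 to 0.928). All 3 were thus lower in the NPC library, but by very different factors, and SNORD28 remained nearest to the ESC level.

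Of the 28S guides, SNORD26 had 2170 RPM in ESCs and 2410 in NPCs, from 9267 and 10603 reads. Its ratio was 1.11 (1.08 to 1.14) scaled by all reads, with the log2 ratio of 0.15 turning to -0.06 when scaled by reads outside snoRNA genes and to -0.19 when scaled by the median of ratios over genes. SNORD29 had 174 RPM in ESCs and 91.4 in NPCs, from 742 and 402 reads, and a ratio of 0.526 (0.465 to 0.595). SNORD31 had 94.6 RPM in ESCs and 34.1 in NPCs, from 404 and 150 reads. Its ratio of 0.360 (0.297 to 0.436) was the lowest of the 8, though its interval overlaps that of SNORD27. SNORD30 had 9.83 RPM in ESCs and 14.5 in NPCs, from 42 and 64 reads, and its ratio of 1.48 has an interval from 0.987 to 2.24 that holds 1. Scaled by all reads, rules that leave out more of the longer RNA put its log2 ratio above 0, at 1.07 (0.36 to 1.81) by the 5′ end, 0.93 (0.26 to 1.63) with an overlap of 24 bases and 0.98 (0.28 to 1.72) for starts within 5 bases, from 26 and 53 reads. The median of ratios lowers every log2 ratio by 0.34, and these rules were not run under it. Counting each start position once put SNORD30 at -0.38 (-1.59 to 0.82).

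**Figure D4:**
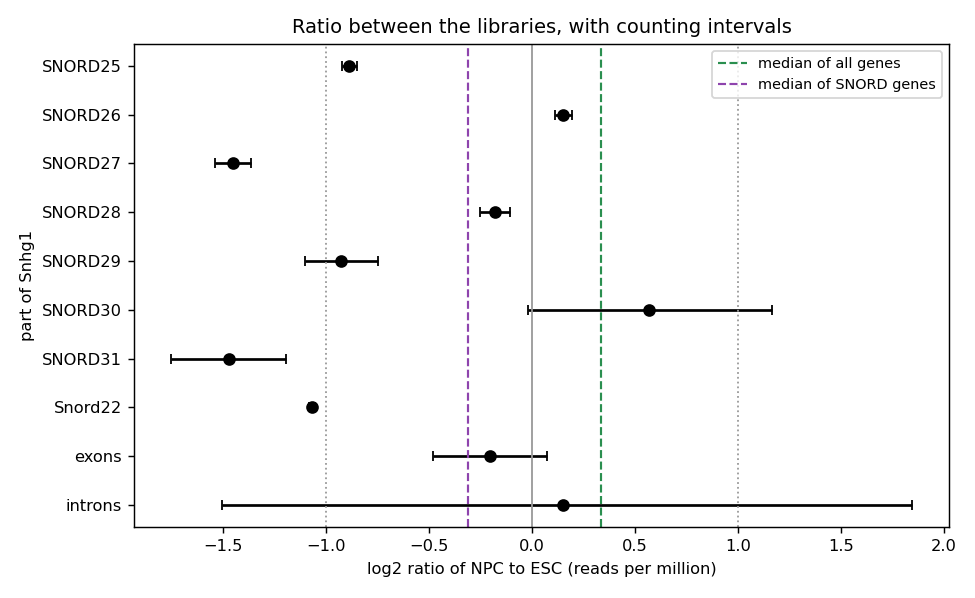
Log2 ratio of NPC to ESC in RPM for the 8 snoRNAs, the exons and the introns of Snhg1, with conditional binomial 95% intervals as bars. The dashed lines are the median of all genes at 0.34 (green) and of SNORD genes at -0.31 (purple), and the dotted lines mark 2-fold. Snord22, SNORD27 and SNORD31 lie beyond 2-fold lower, while SNORD26, SNORD28 and the exons lie near 0.

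Of the 8 snoRNAs, 3 were more than 2-fold lower in NPCs (Snord22, SNORD27 and SNORD31) and 0 were more than 2-fold higher. The lower count was 5 when scaled by reads outside snoRNA genes or by the median of ratios, where SNORD25 and SNORD29 joined, 4 when scaled without the 10 largest clusters and 1 with each start position counted once. Over all genes 12.8% were more than 2-fold lower and 24.6% more than 2-fold higher, over all snoRNA genes 44.2% and 4.51%, and over SNORD and Snord genes 24.1% and 5.56%. Lower by any amount were 6 of the 8, against 37.2% of all genes, 59.3% of SNORD and Snord genes and 75.2% of all snoRNA genes. These members were not chosen independently of the reads, and nothing is read from the counts beyond their size.

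Ratios between members do not depend on how the libraries are scaled, and they differed between the libraries. For each 100 reads of SNORD26, SNORD25 had 192 reads in ESCs (187 to 196) and 93.2 in NPCs (90.6 to 95.8), a 2.06-fold difference between neighbours that lie 190 bases apart. For each 100 reads of SNORD28, the neighbouring SNORD27 had 128 in ESCs (122 to 134) and 53.1 in NPCs (49.8 to 56.6). Against Snord22, SNORD26 went from 7.89 to 18.4 reads per 100, SNORD28 from 2.65 to 4.90 and SNORD30 from 0.0358 to 0.111. SNORD25 went from 15.1 to 17.1 and SNORD29 from 0.632 to 0.697 per 100, while SNORD27 went from 3.39 to 2.60 and SNORD31 from 0.344 to 0.260. Within counting error, no single factor for the whole host gives the reads of both libraries.

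Scaled by all reads, the exons outside snoRNAs had a ratio of 0.867, with an interval of 0.716 to 1.05 that holds 1. The whole body outside snoRNAs, with 241 and 217 reads, gave 0.874 (0.724 to 1.05). Under each of the 3 other scalings the interval of the exon log2 ratio lies below 0. It was -0.31 (-0.59 to -0.03) without the 10 largest clusters, -0.41 (-0.69 to -0.14) by reads outside snoRNA genes and -0.55 (-0.82 to -0.27) by the median of ratios. Assigning reads by their 5′ end put the exons at 0.02 (-0.12 to 0.17), from 745 and 780 reads. Of these, 423 ESC reads and 499 NPC reads started at the base just before SNORD25 and hold its sequence. This value is thus mostly one of SNORD25 and not of the host. Scaled by all reads, the exons were at -0.21 (-0.48 to 0.07) and the 8 snoRNAs together at -0.92, but that sum is mostly Snord22, the gene that chose this host. The 7 other snoRNAs together were at -0.52 (-0.54 to -0.49), just below the exon interval and not overlapping it. With each start position counted once the intervals of the 8 snoRNAs (-0.89 to -0.27) and of the exons (-0.70 to 0.23) overlap. Within exons, exon 1 had a ratio of 0.949 (0.697 to 1.29) and exon 2 of 0.761 (0.587 to 0.985). Reads that began at 8798908 and 8798909 were 34 and 42 of the 139 ESC reads of exon 2. In NPCs they were 20 and 23 of its 109 reads. Of all reads outside snoRNAs these starts took 14.1% and 17.4% in ESCs, and 9.22% and 10.6% in NPCs. They thus lower the exon ratios, which include them under every scaling. No exon ratio was computed without them, and whether the intervals below 0 hold without them was not tested. The short stretch between SNORD28 and SNORD29 had 2 reads in ESCs and 14 in NPCs. All of these are reads of the NPA fraction, and levels of the polyadenylated host were not analysed here.

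Other host genes also held snoRNAs with unequal ratios. In Gas5, a noncoding host of 9 box C/D snoRNAs, the snoRNAs together had a ratio of 0.535 (0.525 to 0.545) and the exons 0.867 (0.580 to 1.29), both close to those of Snhg1. Its single snoRNAs ran from a log2 ratio of -1.96 to 1.69, a wider range than -1.47 to 0.56 in Snhg1, though the upper end rests on SNORD78 with 6 and 20 reads. In Snhg12, which hosts H/ACA snoRNAs besides Snord99, the snoRNAs had a ratio of 0.167 (0.164 to 0.171) and the exons 1.48 (1.10 to 2.02). Snora61 alone gave 66341 of the 68576 ESC reads of these snoRNAs and 10882 of the 11815 NPC reads, so their sum follows it. Snord99, its box C/D member, was at a log2 ratio of 0.04, from 537 and 570 reads. In Rpl13a, which encodes a ribosomal protein, the snoRNAs had 0.654 (0.640 to 0.667) and the exons 0.514 (0.461 to 0.573). Of these 4 hosts, Rpl13a was the one with a lower ratio in its exons than in its snoRNAs. Of 8 noncoding hosts with at least 10 exon reads, Snhg1 included, those with an exon log2 ratio nearest to Snhg1 at -0.21 were Gas5 at -0.21, Snhg4 at -0.14 and Snhg7 at 0.26.

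**Figure D5:**
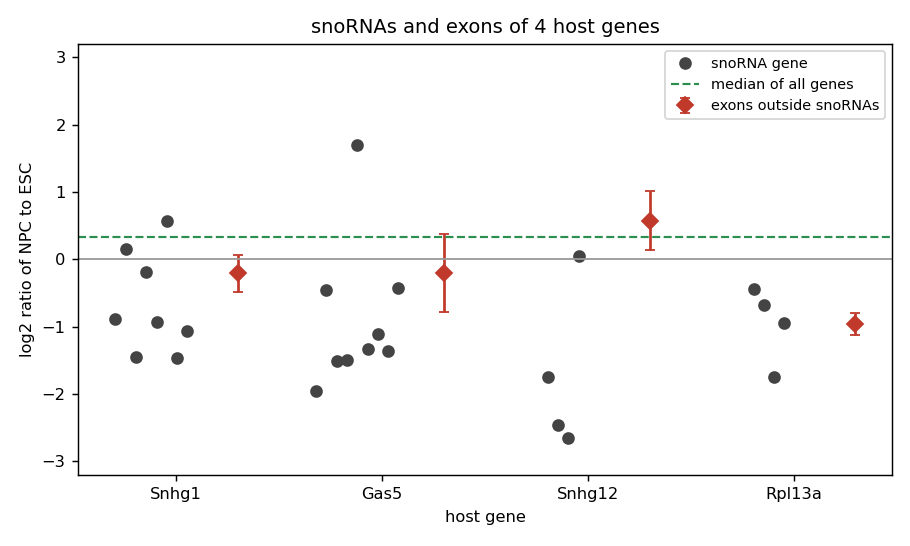
Log2 ratio of NPC to ESC for each snoRNA (grey points) and for the exons outside snoRNAs (red diamonds, with conditional binomial 95% intervals) of Snhg1, Gas5, Snhg12 and Rpl13a. The dashed line is the median of all genes at 0.34. The snoRNAs of Snhg1 run from -1.47 to 0.56, and its exons are at -0.21.

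Reads of the genes for box C/D particle proteins differed in both directions. Of the 12 found of 13 listed, which include the core proteins and the factors that assemble them, 1 was more than 2-fold higher and 1 more than 2-fold lower in NPCs, with a median log2 ratio of 0.29 beside 0.34 for all genes. Over all genes 24.6% were more than 2-fold higher and 12.8% more than 2-fold lower. Nop58, a core protein, was the higher one at 79.8 RPM in ESCs and 168 in NPCs, a ratio of 2.10 (1.84 to 2.39). Ruvbl2, an ATPase of the assembly machinery, was the lower one at 246 RPM in ESCs and 98.9 in NPCs, a ratio of 0.401 (0.358 to 0.449). The methyltransferase Fbl had 71.2 RPM in ESCs and 96.4 in NPCs, a ratio of 1.35 (1.17 to 1.57). Nop56, whose introns are themselves known to hold snoRNAs, had 911 and 712 RPM, a ratio of 0.782 (0.746 to 0.820). The genes of these lists were counted over the joined exons of all their transcripts. Reads of any snoRNA within those exons were not taken out. Of the 8 factors of nonsense-mediated decay found of 10 listed, 0 were more than 2-fold apart in either direction, against 24.6% of all genes higher and 12.8% lower, and their median log2 ratio was 0.57 beside 0.34 for all genes. These are reads of the NPA fraction, and the polyadenylated fraction of these mRNAs was not analysed here.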

How the data were processed

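The NPA fractions of R1 ESCs and NPCs were sequenced on SOLiD 3, with 1 library per cell type. Per the labels and methods, the authors used Bowtie against mm9, did not enforce a unique placement, filtered out mitochondrial, ribosomal and RepeatMasker reads, and deposited the placement, strand and 48 bases of sequence of each read. The Bowtie version is not given in the sources used here. Reads on the strand of a feature that overlapped it by at least 1 base were counted for a snoRNA, else an exon, else an intron of Snhg1, from GENCODE M1. RPM and RPKM use the library totals. The members and gene lists were chosen with earlier results of these data known. Named are all snoRNAs in Snhg1, intron stretches reaching 100 reads at one base, Gas5, Snhg12 and Rpl13a, the 3 noncoding hosts with the nearest exon ratio, and list members more than 2-fold apart. Other genes named, such as Fbl, Nop56, Fn1, Pax6 and SNORD78, were chosen after their values were seen. No test between cell types was made. Log2 ratios over all genes and lists add 1 read in each library, and single features add none. On simulated counts for 14859 genes, 197 of 200 genes changed 4-fold were found past 2-fold, along with 353 unchanged genes. Counting ran in Python 3.11.15 with numba 0.67.0, intervals came from SciPy 1.17.1 over NumPy 2.4.6, and figures from matplotlib 3.10.9.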

Additional observations from a re-analysis of the deposited data

How the results depend on the processing

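The log2 ratio of the 8 snoRNAs together stayed below 0 under all 11 alternatives. It was -0.58 with each start position counted once, -1.03 scaled without the 10 largest read clusters, -1.13 scaled by reads outside snoRNA genes and -1.26 scaled by the median of ratios over genes. The last of these put the exons at -0.55, because it lowers every log2 ratio by 0.34. The other scalings also lower every log2 ratio, so none of them could bring the 8 snoRNAs above 0. Keeping reads of unique sequence, keeping full-length intervals and joining exons left the snoRNA counts unchanged. The counts of alternatives given here therefore include outcomes that were fixed in advance. Counting each start once reduced Snord22 to 55 ESC and 48 NPC starts, so it caps abundant snoRNAs, and the per-base excess of snoRNAs over exons then fell to 7.74 in ESCs and 6.11 in NPCs. With the exons of all transcripts joined it was 2403 and 1452. SNORD27 was past 2-fold in 11 of 11 alternatives, SNORD31 and Snord22 in 10, SNORD29 in 3 and SNORD25 in 2. SNORD26 fell below 0 in 3 of 11, and SNORD30 ranged from -0.38 to 1.07. The most used start base stayed in place when the deeper library was thinned, but this removed few reads, as Snord22 went from 57653 to 55983 in NPCs. Genes more than 2-fold lower in NPCs numbered 1908, 1107 with a minimum of 50 reads and 3955 with no minimum. Restricting to reads that start within 5 bases of a snoRNA's first base, and counting the whole body outside snoRNAs as host, were alternatives chosen after seeing the data. Exon density outside soft-masked repeats was not run, because the reference used here marks no repeats. No paired analysis was possible because each cell type has 1 library. Counting error is the only error these data give, and SNORD30 and the introns are limited by depth.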
